A study of Mus musculus with 6 samples.

Results

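The G-protein, adenylyl cyclase, protein kinase A (PKA) and phosphodiesterase genes carry a hormone signal from a receptor at the beta-cell surface to cyclic AMP (cAMP) and from cAMP to its effector kinase. They were taken by gene symbol alone, as the rows of the gene table whose symbol starts with *Gna*, with *Gnb*, *Adcy*, *Rgs* or *Pde* followed by a digit, or with *Prkac* or *Prkar*, leaving out *Pde4b* and the *Gng* genes. It gave 51 of 13535 genes: 13 G-alpha, 5 G-beta, 2 adenylyl cyclase, 4 PKA regulatory, 2 PKA catalytic, 15 phosphodiesterase and 10 *Rgs* genes. *Gnb1l*, *Rgs7bp*, *Pde12* and *Pde4dip* share the symbols but are not a G-beta subunit, an RGS protein or a cyclic nucleotide phosphodiesterase, and they are kept apart where levels are compared within a family.

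The study asked what beta-cells lose when they are kept away from the other endocrine cells of the islet. Beta-cells were sorted by flow cytometry out of pseudo-islets, in which alpha-, beta- and delta-cells were reaggregated together, and out of pseudo-beta, which held beta-cells only. There were 3 libraries of each group, 1 of either kind from each of the experiments that the labels number 35, 36 and 37. All cells were wild type, from 12-week-old male C57BL/6JRj mice, and both groups spent 5 days in RPMI medium with fetal bovine serum, with no agent added that the labels mention. Both groups had been dispersed, reaggregated, cultured and sorted, and neither stands for beta-cells of an intact islet. RNA was made from pools of sorted cells, so that a lower value can be fewer cells with the transcript or less of it per cell, and these cannot be told apart.

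Binding of a hormone to its receptor makes the G-alpha subunit exchange GDP for GTP and part from the G-beta and G-gamma subunits. Gs subunits stimulate adenylyl cyclase and Gi subunits inhibit it, RGS proteins speed the return of the G-alpha subunit to its GDP-bound state, and phosphodiesterases break cAMP down. In the beta-cell, cAMP raised through the glucagon and incretin receptors frees the PKA catalytic subunits from the regulatory ones and amplifies the secretion of insulin.

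The measure throughout is the signal deposited by the authors, in normalized counts per gene and library, and the 6 libraries summed to between 17994346 and 19635287. Each gene of the table reached 10 normalized counts in 3 libraries or more, so a gene detected well in 1 group alone could enter it. Transcripts of other islet hormones were present in the beta-cells sorted from pseudo-islets and scarcer in those from pseudo-beta. *Gcg*, the glucagon gene of alpha-cells, had 1763, 941 and 2094 normalized counts in the pseudo-islets of experiments 35, 36 and 37. In pseudo-beta *Gcg* had 36.1, 14.1 and 0. *Sst*, the somatostatin gene of delta-cells, had 190, 146 and 210.2 against 0, 0 and 4.74. The insulin gene *Ins2*, by comparison, stood between 5405326 and 5971276 in every library. Over the whole marker lists, the summed level of the 6 alpha-cell markers in the table, of 12 looked for, ran from 24797 to 29558 in pseudo-islets and from 22180 to 29304 in pseudo-beta, and that of the 4 delta-cell markers, of 8, from 1126 to 1433 and from 1147 to 1491. *Peg3* and *Ttr* made up most of the alpha-cell sum, and only *Gcg* and *Sst* of these markers were listed at 0 in a library. *Ttr* among them, and the PP-cell markers *Ppy* and *Pyy*, were higher in pseudo-islets in each experiment, with adjusted p = 0.0303, 0.00267 and 0.0259 in limma with the block. The part that RNA of other endocrine cells has in the values of the 51 genes was not tested.

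No member passed the test. Groups were compared on log2(normalized counts + 1) with limma, p-values were adjusted over all 13535 genes by the Benjamini-Hochberg method, and a call needed an adjusted p under 0.05; a positive log2 fold change is a higher value in pseudo-islets. In this fit 0 of 51 members were called, beside 0.0591% of all genes, and the smallest adjusted p of a member was 0.525 (*Pde7a*). A fit with the experiment number as a replicate block compares libraries within experiments. It called 0 members too, beside 0.539% of all genes, and its smallest adjusted p was 0.0544 (*Prkar1a*). With the block but without limma's trend of the variance with abundance (no variance trend), 0 of all 13535 genes were called. At an unadjusted p under 0.05, limma without the block singled out 7 members, or 13.7%, beside 5.4% of all genes. Limma with the block had 13 members below that mark. Of these, 5 were higher in pseudo-islets (9.8% of members, 6.69% of all genes) and 8 were lower (15.7% of members, 5.22% of all genes). With 3 libraries against 3, an exact two-sided permutation test of a single gene cannot go below 0.1.

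The intervals of the fitted differences were mostly narrower for the abundant members than for the scarce ones. The size of a difference did not follow abundance alone. *Pde5a*, with a mean of 723 normalized counts, had a log2 fold change of -0.74, and *Pde4d*, with a mean of 43.7, one of 0.10. The log2 fold changes had a median of -0.08, against 0.01 over all genes, and 22 were positive and 29 negative. Their median standard error was 0.28 without the block and 0.20 with it. For 12 members without the block, and 20 with it, the whole 95% interval lay within a 1.5-fold difference in either direction. The 3 libraries of the groups did not overlap for 8 members. *Gna13*, *Gnb4* and *Rgs9* stood higher in pseudo-islets, 3 members where 5.63% of all genes did so. *Adcy6*, *Gnb1l*, *Pde4a*, *Pde7a* and *Pde7b* stood lower, 5 members where 5.13% of all genes did so. Within all 3 experiments, 7 members were higher in pseudo-islets (18% of all genes) and 11 were lower (15% of all genes).

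**Figure D1:**
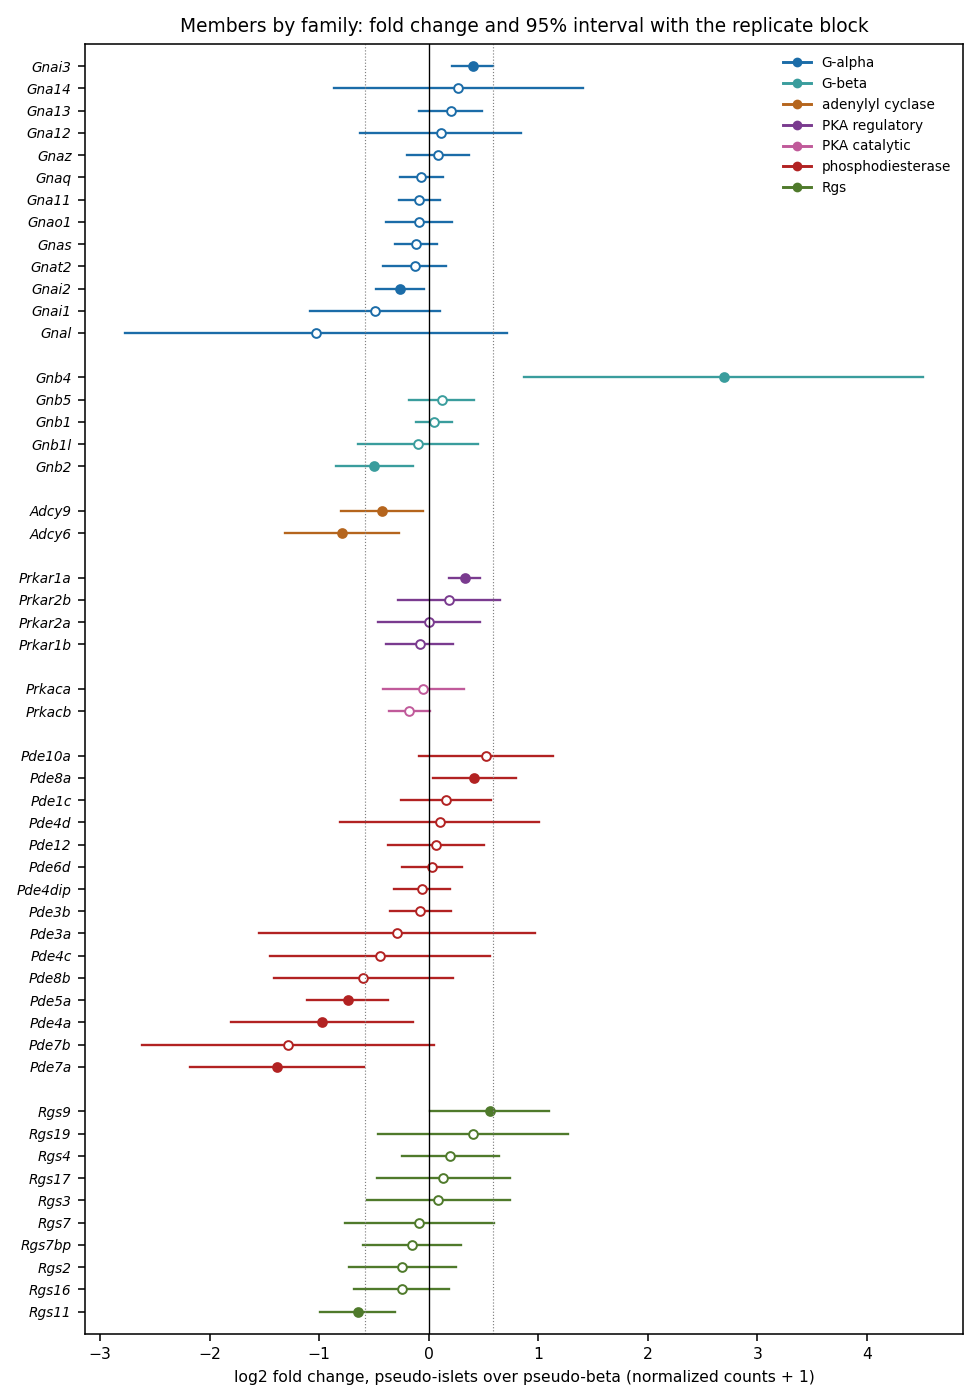
Log2 fold change of each of the 51 members, pseudo-islets over pseudo-beta, on normalized counts + 1. Points are limma estimates and lines are 95% intervals with the replicate block, filled points have an unadjusted p under 0.05 in that fit, dotted lines mark a 1.5-fold difference, and colours mark the families. Intervals are short for *Prkar1a*, *Gnai3* and *Gnb1* and longest for *Gnb4*, *Gnal* and *Pde7b*, and both cyclases lie to the left of 0.

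PKA is held inactive as a complex of regulatory and catalytic subunits, and its type I alpha regulatory subunit, *Prkar1a*, was the most abundant member. *Prkar1a* (chromosome 11 of GRCm38, 109649405 to 109669656, plus strand) had 23681, 19162 and 15790 normalized counts in the pseudo-islets of experiments 35, 36 and 37, against 18444, 16183 and 12174 in pseudo-beta. Experiment 35 was the highest and experiment 37 the lowest in both groups, so the groups overlapped, while pseudo-islets were higher within each experiment, by 1.28-fold, 1.18-fold and 1.30-fold. The log2 fold change was 0.33 (standard error 0.18 without the block, 0.06 with it), with an unadjusted p = 0.000321 and an adjusted p = 0.0544 in limma with the block and an adjusted p = 0.969 without it. With the block and no variance trend, the adjusted p was 0.595. The 95% interval with the block and the trend ran from 1.14-fold to 1.38-fold.

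The other regulatory subunits were far less abundant. Levels of different genes were set side by side per kilobase of exon, with all annotated exons of a gene counted. A gene with long exons outside its main transcript can be put too low by this, so orders and shares are approximate. On this scale *Prkar1a* stood at 4523 in pseudo-islets and 3610 in pseudo-beta. It made up 83.9% to 93.2% of the summed regulatory subunits in a library. *Prkar1b* (266 and 284 normalized counts per kilobase), *Prkar2b* (114 and 114) and *Prkar2a* (54.0 and 57.2) followed. *Prkar2b*, the type II beta subunit, had 351, 314 and 580.3 normalized counts in pseudo-islets, against 209, 268 and 776 in pseudo-beta. Both groups were highest in experiment 37, and the order of the groups turned there, so its log2 fold change of 0.19 (standard error 0.43) had no settled sign.

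Of the catalytic subunits, *Prkacb* was the main transcript and *Prkaca* the lesser. *Prkacb* had 6163, 5504 and 4997 normalized counts in pseudo-islets, against 7537, 6702 and 4862 in pseudo-beta. It was lower in pseudo-islets in experiments 35 and 36, by 1.22-fold each, and near equal in experiment 37, at a fitted log2 difference of -0.18 (standard error 0.17, adjusted p = 0.45 in limma with the block). *Prkaca*, with 375, 249.99 and 459 against 379, 307 and 410.4, had a log2 fold change of -0.05. On the scale per kilobase, the ranges over the 6 libraries put *Prkar1a* over *Prkacb*, *Prkacb* over *Prkar1b* and *Prkar1b* over *Prkaca* without overlap, while the range of *Prkar2b* overlapped those of *Prkaca* and *Prkar2a*.

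The ratio of the main regulatory to the main catalytic transcript differed between the groups more than either transcript did, and it does not depend on how libraries were scaled. *Prkar1a* over *Prkacb* was 3.84, 3.48 and 3.16 in the pseudo-islets of experiments 35, 36 and 37, against 2.45, 2.41 and 2.50 in pseudo-beta, in normalized counts. The pseudo-beta libraries lay within a narrow band, and all 3 pseudo-islet libraries were above it. With all subunits summed per kilobase, the ratio of regulatory to catalytic transcripts was 6.89, 6.62 and 5.53 against 4.59, 4.73 and 4.67. These ratios were chosen after the values were seen and are given with no test.

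**Figure D2:**
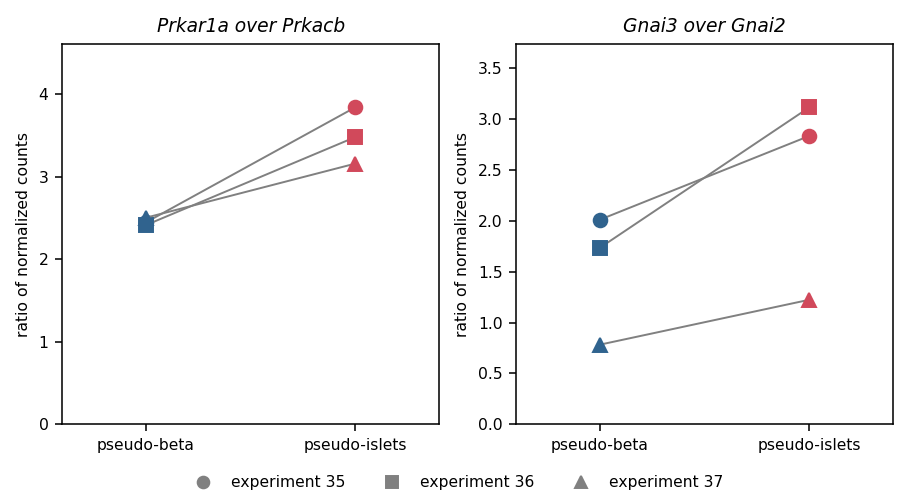
Ratio of normalized counts of *Prkar1a* over *Prkacb* (left) and of *Gnai3* over *Gnai2* (right) in the 6 libraries, from 0 on a linear axis. Each symbol is 1 experiment and each line joins its 2 libraries, which are pseudo-beta in blue and pseudo-islets in red. The left ratio is 2.41 to 2.50 in pseudo-beta and 3.16 to 3.84 in pseudo-islets, and the right one is higher in pseudo-islets within each experiment while its groups overlap.

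Per kilobase, the G-alpha genes were led by *Gna11* and *Gnai3*. In normalized counts without that division, *Gnas*, with 11.186 kilobases of annotated exon, had a mean of 4338, *Gna11* 4525 and *Gnai3* 3284. *Gna11*, which activates phospholipase C, had 1070 normalized counts per kilobase in pseudo-islets and 1139 in pseudo-beta, and the inhibitory subunit *Gnai3* had 1148 and 866. The ranges of these genes over the 6 libraries overlapped (1004 to 1232 and 705 to 1343), so they cannot be ordered. *Gnai2*, *Gnaq*, *Gnas* and *Gnaz* came next, between 289 and 777, and of these only the ranges of *Gnaq* and *Gnaz* did not overlap. *Gnai2* and *Gnai3* cannot be ordered over all libraries either, since *Gnai2* was the higher of them in the pseudo-beta of experiment 37. The cone transducin gene *Gnat2* (224 and 245) and *Gna13* (105 and 91.2) were below them, and *Gnal*, the olfactory Gs subunit, was the lowest at 0.818 and 2.06.

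The Gi genes did not point one way. *Gnai3* (chromosome 3, 108107280 to 108146146, minus strand) had 4382, 4013 and 2835 normalized counts in pseudo-islets, against 3373, 2801 and 2300 in pseudo-beta. Pseudo-islets were higher within each experiment, by 1.30-fold, 1.43-fold and 1.23-fold, and the overlap of the groups came from the low libraries of experiment 37. Its log2 fold change was 0.40 (standard error 0.19 without the block, 0.09 with it). The adjusted p in limma was 0.0772 with the block, 0.928 without it, and 0.561 with the block and no variance trend.

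*Gnai2*, which encodes a close relative of the *Gnai3* protein, had 1545 normalized counts in experiment 35, 1288 in experiment 36 and 2315 in experiment 37 of the pseudo-islets, and 1677, 1613 and 2938 in pseudo-beta. It was lower in pseudo-islets within each experiment, by 1.09-fold, 1.25-fold and 1.27-fold, with a log2 fold change of -0.26 (adjusted p = 0.328 in limma with the block). *Gnai1*, the least abundant of these, was also lower in each experiment, at a fitted log2 difference of -0.49 (standard error 0.32, adjusted p = 0.512 in limma with the block). *Gnai3* over *Gnai2* was 2.84, 3.12 and 1.22 in pseudo-islets, against 2.01, 1.74 and 0.783 in pseudo-beta, so that the ratio was higher in pseudo-islets in each experiment, and in experiment 37 it was lowest in both groups.

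The genes of the other Gi-class subunits, *Gnao1* and *Gnaz*, had log2 fold changes of -0.09 and 0.08. *Gnas*, which encodes the stimulatory subunit, had 3441, 3233 and 5982 normalized counts in pseudo-islets, against 3937, 3783 and 5655 in pseudo-beta. Experiment 37 was the highest in both groups, and the order of the groups turned there. The log2 fold change was -0.11. With the block, the 95% interval ran from 0.81-fold to 1.06-fold, which leaves out a 1.5-fold difference in either direction. Without the block, the interval ran from -0.64 to 0.41 on the log2 scale, which takes in a 1.5-fold lower value. Exons of *Nespas* and *Gm20721* lie opposite those of *Gnas* (chromosome 2, 174284320 to 174346744), and how strand was treated in the authors' counting is not given in the sources used here.

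*Gnaq* and *Gna11*, the pair that activates phospholipase C, differed little, at log2 values of -0.07 and -0.09 with standard errors of 0.13 and 0.12. *Gna13* had 671, 668 and 678 normalized counts in pseudo-islets, against 615, 586 and 555 in pseudo-beta. All pseudo-islet libraries were above all pseudo-beta ones and the values within a group were close, yet the difference was 1.15-fold (log2 fold change 0.20, adjusted p = 0.602 in limma with the block).

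Among the G-beta genes *Gnb1* was the main transcript and the one that differed least. This transcript had 6830, 6199 and 7025 normalized counts in pseudo-islets, against 6179, 6136 and 7082 in pseudo-beta, and it made up 78.9% to 83.2% of the G-beta transcripts per kilobase. Its log2 fold change was 0.05 (standard error 0.12), and it went below 0, to -0.01, when libraries were scaled without the 10 most abundant genes. *Gnb2* (chromosome 5, 137528127 to 137533510), which shares exon bases with *Epo* and *Mir6418* on its own strand, had 231, 251 and 519 normalized counts in pseudo-islets, against 358, 347 and 681 in pseudo-beta. Pseudo-islets were lower within each experiment, by 1.55-fold, 1.38-fold and 1.31-fold, and experiment 37 was the highest in both groups (log2 fold change -0.50, adjusted p = 0.248 in limma with the block).

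*Gnb4* was at the floor of the table, with 38.2, 36.1 and 80.1 normalized counts in pseudo-islets, against a listed 0, then 31.3 and 12.5 in pseudo-beta. All pseudo-islet libraries were above all pseudo-beta ones, by a small margin in experiment 36. Its log2 fold change of 2.69 depends on the 1 that was added before taking logs, and it was 3.82 with 0.1 and 1.48 with 10 in its place. Without the pseudo-beta library listed at 0 it was 1.23. *Gnb5*, which partners the R7 group of RGS proteins, had a log2 fold change of 0.12.

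Both adenylyl cyclases in the table were lower in pseudo-islets within every experiment. They were *Adcy9* and the calcium-inhibited *Adcy6*. *Adcy1*, *Adcy5* and *Adcy8*, which are known for a part in the beta-cell, were looked for and were not in the table. *Adcy6* (chromosome 15, 98589973 to 98610076, minus strand, opposite *Gm29331*) had 108, 98.1 and 183 normalized counts in pseudo-islets, against 189, 224 and 239 in pseudo-beta. The groups did not overlap, although the pseudo-islets of experiment 37 came close to the pseudo-beta of experiment 35. The level was 1.75-fold, 2.27-fold and 1.31-fold lower in pseudo-islets in the 3 experiments, at a fitted log2 difference of -0.79 (standard error 0.29 without the block and 0.24 with it, adjusted p = 0.872 without and 0.216 with the block in limma).

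*Adcy9* (chromosome 16, 4287529 to 4420498, minus strand) had 296, 244 and 456 normalized counts in pseudo-islets, against 399, 405 and 497 in pseudo-beta. The groups overlapped through experiment 37, where both libraries were the highest of their group. Its log2 fold change was -0.43 (adjusted p = 0.362 in limma with the block), with a 95% interval from 1.03-fold to 1.75-fold lower. Per kilobase *Adcy9* exceeded *Adcy6* in every library, and it made up 70.2% to 78.2% of the cyclase transcripts measured.

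**Figure D3:**
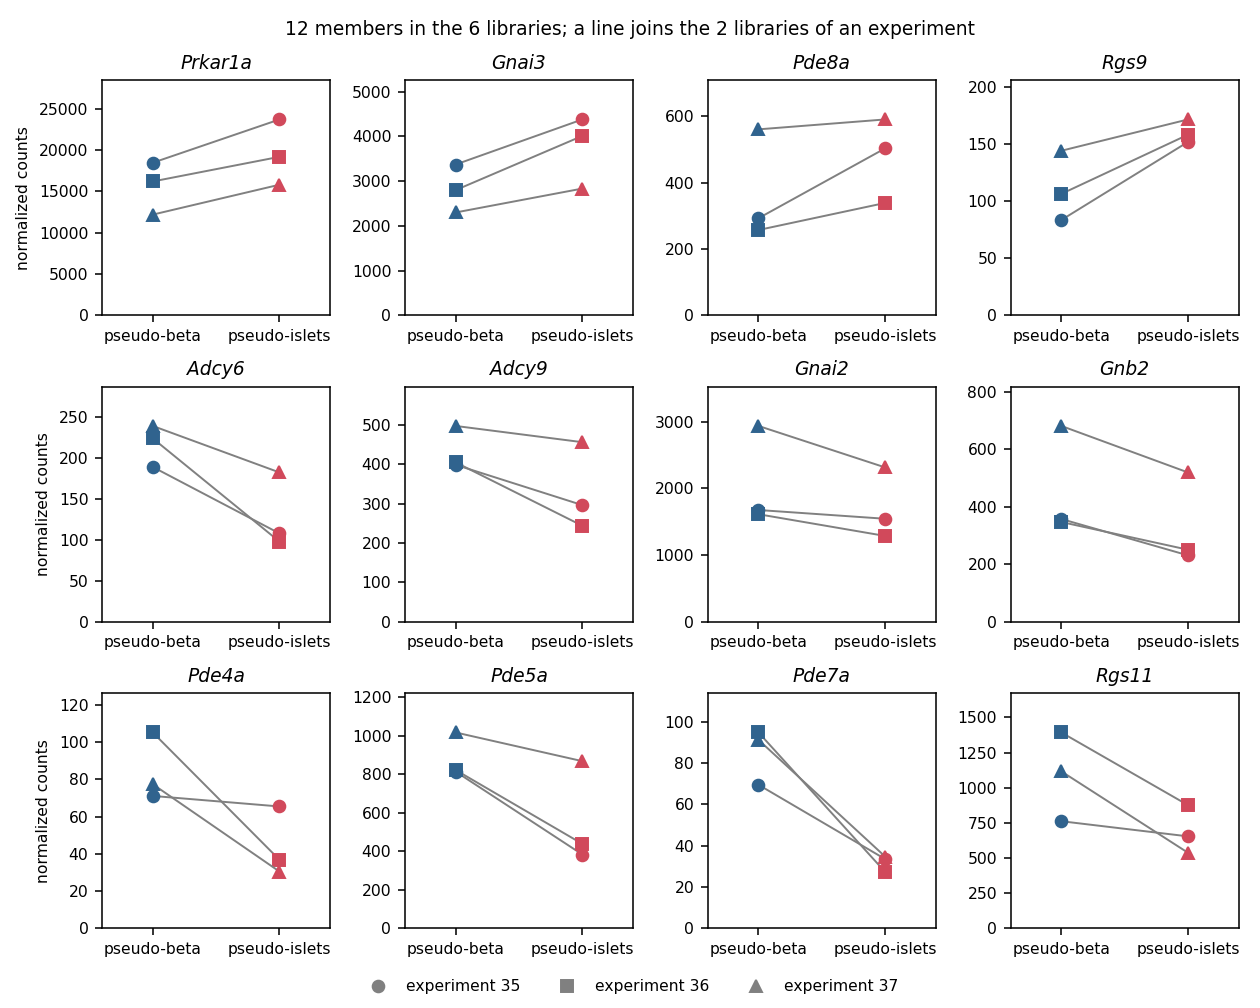
Normalized counts of 12 members, those with a mean of at least 50 and an unadjusted p under 0.05 in limma with the replicate block, on linear axes from 0. Each symbol is 1 experiment (35, 36 or 37), blue is pseudo-beta, red is pseudo-islets, and each line joins the libraries of 1 experiment. All lines of *Prkar1a*, *Gnai3*, *Pde8a* and *Rgs9* go up from pseudo-beta to pseudo-islets and all lines of the other 8 go down, and the groups separate only for *Rgs9*, *Adcy6*, *Pde4a* and *Pde7a*.

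The phosphodiesterases split by abundance. *Pde6d*, whose product is a prenyl-binding protein and subunit of the rod enzyme, led the family per kilobase with 501 and 489.6 normalized counts, at a log2 fold change of 0.03 that went to -0.03 with the scaling named above. *Pde8a* (118 and 91.4), *Pde3b* (90.6 and 97.7) and *Pde5a* (57.2 and 89.9) followed, and the ranges of *Pde8a*, *Pde3b* and *Pde5a* over the libraries overlapped. The genes of the cAMP-specific families other than *Pde8a* were all below 19 per kilobase in each library.

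Of the 7 genes of the cAMP-specific families, 5 had a negative log2 fold change and 2 a positive one, with a median of -0.60. *Pde7a* (chromosome 3, 19223108 to 19311322, minus strand, opposite *Gm16093*) had 33.5, 27.3 and 34.7 normalized counts in pseudo-islets, against 69.5, 94.9 and 91.3 in pseudo-beta. All pseudo-islet libraries lay well below all pseudo-beta ones, and the level was 2.04-fold, 3.39-fold and 2.58-fold lower in pseudo-islets. Its log2 fold change was -1.39 (standard error 0.35), with an unadjusted p = 0.00231 and an adjusted p = 0.525 in limma without the block, and an adjusted p = 0.157 with it.

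*Pde7b*, at 9.18, 8.77 and 11.6 normalized counts against 36.4, 28.0 and 15.6, was near the floor. The groups did not overlap, and in experiment 37 the libraries were close to each other (log2 fold change -1.28, standard error 0.55; adjusted p = 0.439 with the block). *Pde4a* had 65.4, 36.8 and 30.5 against 71.1, 105 and 77.4, so that experiment 35 showed almost no difference and the others a large one (log2 fold change -0.97, adjusted p = 0.344 in limma with the block).

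*Pde8a*, the gene of the cAMP-specific families with the most transcript, ran the other way. There were 503, 339 and 590.1 normalized counts in pseudo-islets, against 292, 257 and 560.2 in pseudo-beta, higher in pseudo-islets by 1.72-fold, 1.32-fold and 1.05-fold. The groups overlapped through experiment 37 (log2 fold change 0.42, adjusted p = 0.379 in limma with the block). *Pde8b* and *Pde4d* had log2 fold changes of -0.60 and 0.10, with standard errors of 0.41 and 0.48, and differed in direction between experiments.

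*Pde5a*, the cGMP-specific enzyme, was more abundant per kilobase than *Pde7a* and *Pde4a* in every library and was also lower in pseudo-islets in each experiment. *Pde5a* (chromosome 3, 122728947 to 122859374, plus strand, opposite *4930447N08Rik*) had 383, 438 and 867 normalized counts in pseudo-islets, against 813, 821 and 1016 in pseudo-beta. In experiments 35 and 36 pseudo-islets were 2.12-fold and 1.87-fold lower, and in experiment 37, which held the highest library of each group, 1.17-fold lower. The adjusted p in limma was 0.872 without the block, 0.0946 with it, and 0.552 with the block and no variance trend. The log2 fold change was -0.74 (standard error 0.28 without the block, 0.17 with it). Without experiment 37 and with the block, it was -0.99 with an adjusted p = 0.0466, the only call of a member under the alternatives run, in a fit that called 0.332% of all genes.

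The enzymes that hydrolyse both cyclic nucleotides had 2 positive and 2 negative log2 fold changes. *Pde3b*, a main cAMP phosphodiesterase of the beta-cell, had 698, 775 and 1003 normalized counts in pseudo-islets, against 709, 735 and 1227 in pseudo-beta, which overlapped (log2 fold change -0.08; 0.78-fold to 1.15-fold in the 95% interval with the block). *Pde1c*, which calcium and calmodulin activate, was higher in pseudo-islets in each experiment by 1.09-fold, 1.10-fold and 1.15-fold (log2 fold change 0.16, adjusted p = 0.799 with the block). *Pde10a* had 246, 237 and 238 against 114, 131 and 309.6, so that the pseudo-islet values were nearly equal, and experiment 37 went the other way (log2 fold change 0.52, adjusted p = 0.492 with the block).

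The *Rgs* genes included *Rgs9* and *Rgs11*, with values in opposite directions. Both are of the R7 group, which works with *Gnb5* and acts mainly on Gi and Go subunits. *Rgs11* (chromosome 17, 26202951 to 26211324, plus strand, opposite *Arhgdig*) had 654, 876 and 537 normalized counts in pseudo-islets, against 762, 1393 and 1116 in pseudo-beta. It was 1.16-fold, 1.59-fold and 2.08-fold lower in pseudo-islets, and the groups overlapped because experiment 36 was the highest of both (log2 fold change -0.65, adjusted p = 0.123 with the block and 0.872 without it in limma).

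*Rgs9* had 152, 158 and 171 normalized counts in pseudo-islets, against 83.4, 106 and 144 in pseudo-beta. The groups did not overlap, though the pseudo-beta library of experiment 37 lay just under the pseudo-islets (log2 fold change 0.56, adjusted p = 0.409 with the block). *Rgs7*, the remaining R7 gene in the table, and *Rgs7bp*, whose product anchors R7 proteins to the membrane, had log2 fold changes of -0.08 and -0.16. Whether *Rgs9* and *Rgs11* differ from each other in their change was not tested.

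*Rgs4*, the most abundant *Rgs* gene per kilobase (560.2 and 424), was also among the most variable. It stood at 714, 1406 and 3087 normalized counts in pseudo-islets, against 1079, 1055 and 1807 in pseudo-beta, a 4.32-fold range over the libraries. Pseudo-islets were lower in experiment 35 and higher in the others, and the log2 fold change of 0.20 (standard error 0.43) lay within that spread. *Rgs2* and *Rgs16* stood at log2 fold changes of -0.24 and -0.25, with standard errors of 0.31 and 0.21.

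**Figure D4:**
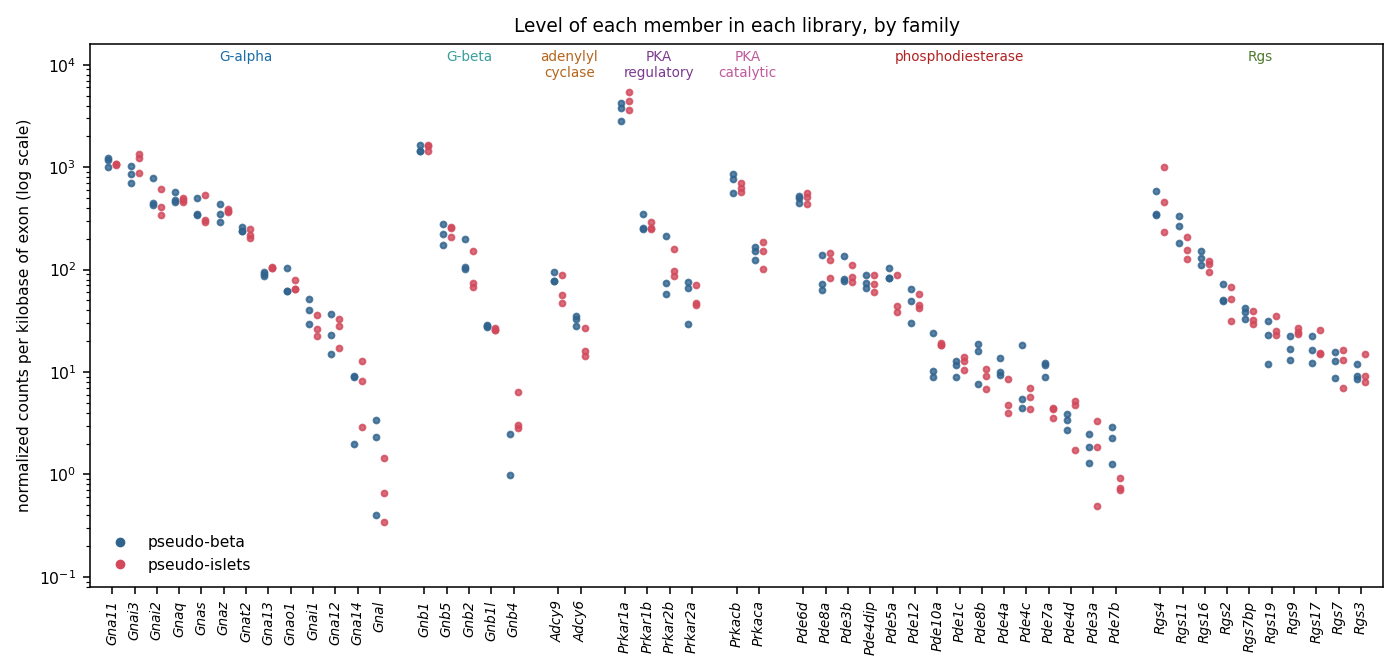
Level of each member in each of the 6 libraries, in normalized counts per kilobase of exon on a log axis, ordered within its family. Blue points are pseudo-beta, red points are pseudo-islets, and a value of 0 (1 library of *Gnb4*) is not drawn. *Prkar1a* is the highest at 2817 to 5480.5, and the G-alpha, G-beta and phosphodiesterase families span a wide range from a few abundant genes down to scarce ones.

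Experiment 37 stood at one end of both groups for many members. It held the highest library of each group in 20 of the 51 members (39.2%), beside 22.1% of all genes, and the lowest of each in 8 (15.7%), beside 21.8% of all genes. *Gnas*, *Gnai2*, *Gnb2*, *Adcy6*, *Adcy9*, *Pde5a* and *Rgs4* were among the former, and *Prkar1a*, *Gnai3* and *Prkacb* among the latter. Differences of this kind are shared by the groups and taken out by the block, and what goes with experiment 37 was not tested.

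Other genes of the cAMP pathway, from a list of 39 of which 31 were in the table, were compared in the same fits. Limma called 0 of the 31 without the block (0.0591% of all genes) and 2 with it (0.539% of all genes). At an unadjusted p under 0.05 with the block, 2 were higher in pseudo-islets (6.69% of all genes) and 5 lower (5.22% of all genes). The median log2 fold change of the 31 was -0.13, against 0.01 over all genes. *Crem*, a cAMP-responsive transcription factor gene, had 953, 957 and 1415 normalized counts in pseudo-islets, against 656, 467 and 842 in pseudo-beta (adjusted p = 0.0319 with the block, 0.781 without). *Gcgr*, the glucagon receptor gene, had 874, 889 and 648 against 1267, 1318 and 1099.8 (adjusted p = 0.0429 with the block, 0.649 without). The groups did not overlap for either gene. With the block and no variance trend, neither was called, since 0 of all genes were.

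The cAMP response element, TGACGTCA, and its core, TGACG, were searched on both strands of RefSeq promoters on GRCm38.p6, from 250 bases before to 50 after a start site; each full element holds the core. Of the members, 42 matched by symbol. The full element lay in a promoter of 1 of these (2.38%), beside 3.89% of the 9801 matched genes of the table and 2.03% of all 27025 genes. The core lay in promoters of 17 (40.5%), beside 36.4% and 23.0%. The stretches shown come from the members with an unadjusted p under 0.05 with the block that hold a match wholly before a start site, 30 bases each on the strand of the gene, with the match in capitals. *Prkar1a* has such matches at 3 start sites, and the stretch with the full element is the one shown.
Prkar1a, chr11:109650891-109650920: gaggcgcatTGACGTCAgcagccgaacgct
Pde8a, chr7:81213169-81213198: gctgctttgcatTGACGccagcagccgctg
Pde4a, chr9:21184039-21184068: ggcacagctcgaCGTCAggctggggaggag
Adcy9, chr16:4420505-4420534: cggacccggcggTGACGtgcgcgggccgcg
*Prkar1a*, the only member with the full element, and *Pde8a* were higher in pseudo-islets, and *Pde4a* and *Adcy9* were lower. A match in these letters is a description of the sequence and not a measured site.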

How the data were processed

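Beta-cells sorted from pseudo-islets and from pseudo-beta were compared, with 3 libraries each. Per the labels and the study's methods, 5 ng of total RNA went into each library, which was read in pairs of 75 bases, and the submitters' processing notes name STAR 2.7.6a, RSEM 1.3.1, R 3.6.3, DESeq2 1.26.0 and GRCm38. The deposited values used are a signal, the normalized counts that the authors made from estimated counts. They are not whole reads, so the number of reads is unknown. The authors' mean, log2 fold change, standard error, test statistic, p-value and adjusted p-value columns of the same table were not used.

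Log2(value + 1) was fitted with limma 3.58.1 in R 4.3.3 (trend of the prior variance, Benjamini-Hochberg over 13535 genes, two-sided), without a block and with the experiment as a replicate block. The study's methods name no covariate, so the fit without the block is the main one. Deviations of the libraries from their group means correlated by 0.119, 0.121 and 0.325 within experiments 35, 36 and 37. Between experiments the correlations ran from -0.203 to 0.0922. Only experiment 37 stood well above that range, and the numbers were taken to pair the samples. The replicates are labelled as separate experiments. Members named are those with an adjusted p under 0.05, those with an unadjusted p under 0.05 with the block and a mean of at least 50, the most abundant per kilobase of a family, and 27 genes listed by role, of which 24 were in the table. *Gnb4*, *Pde7b*, *Gna13* and the members given for their place in a family were added after their values were seen. The members and lists were chosen with earlier results of these data known. Lengths count all annotated exons of a gene. These lengths, positions and overlaps are from GENCODE M21 and promoters from RefSeq. Markers of acinar, immune, endothelial and stromal cells had 0 genes in the table, and those of PP-cells 2 of 2 (summed 658 to 5500.2 in pseudo-islets, 328 to 2482 in pseudo-beta), and of beta-cells 9 of 9. The fit was tested on simulated data. The alternatives tried were the block, 2 scalings, pseudocounts of 0.1 and 10, filters on low values, no trend, and each library or experiment left out.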

Additional observations from a re-analysis of the deposited data

How the results depend on the processing

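The number of members called stayed at 0 in limma without the block under every scaling, pseudocount, filter and prior variance tried, and with the replicate block as well. Over the fits that left out a library or an experiment it ran from 0 to 1, the 1 being *Pde5a* without experiment 37 and with the block, where 45 of 13535 genes were called; 0 to 73 of all genes were called over those fits. The count of members with an unadjusted p under 0.05 was 13 with the replicate block, 9 with the block and no variance trend, 9 to 14 with the block and an experiment left out, and 7 without the block; this count and its alternatives were chosen after the data were seen. Members whose groups did not overlap numbered 8, and 6 to 8 under the alternatives. Of 641 values of 34 members under the alternatives, some of which pair the block with another choice, 604 kept their direction and side of the threshold, 36 changed sign and 1 passed it, and 21 members had no change of sign. Scaling without the 10 most abundant genes, with or without the block, gave *Gnb1* -0.0093 and *Pde6d* -0.031 on the log2 scale, and quantile normalization -0.043 and -0.010. When a library or an experiment was left out, the log2 fold change ran from -0.50 to 0.017 for *Gnai2*, -0.22 to 0.16 for *Gnao1*, -0.13 to 0.026 for *Gnaq*, -0.39 to 0.071 for *Gnas*, -0.078 to 0.24 for *Gnaz*, -0.23 to 0.18 for *Pde3b*, -0.18 to 0.59 for *Pde4d*, -0.054 to 0.17 for *Pde6d*, -0.24 to 0.19 for *Prkaca*, -0.19 to 0.76 for *Prkar2b*, -0.49 to 0.065 for *Rgs2* and -0.34 to 0.71 for *Rgs4*. Among members whose sign held, it still moved by over 1.5 times, for example from -0.86 to -0.18 for *Gnb2*, -0.68 to -0.23 for *Adcy9*, -0.36 to -0.045 for *Prkacb*, -0.44 to -0.046 for *Rgs16*, 0.20 to 0.76 for *Pde8a* and 0.16 to 0.47 for *Prkar1a*. For *Rgs4* the sign turned without the pseudo-islets of experiment 37 or without the whole experiment. With the block and no variance trend, 0 of all genes were called, against 73 with the block and the trend. The block changed no call of a member. The cause of these changes was not tested.

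The depth in reads is unknown, and 7 members had a mean under 50 normalized counts, where a fold change rests on few reads and on the 1 added before taking logs.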
